A study of Drosophila melanogaster with 16 samples.

Results

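The methuselah-like genes of *Drosophila* encode a family of G protein-coupled receptors, and the values described here are those of the family in adult fly hearts. A probeset, the set of short probes by which the array measures a transcript, was taken as a member when its only gene symbol was 1 of 10 family symbols: *mth*, *mthl1*, *mthl2*, *mthl3*, *mthl4*, *mthl5*, *mthl8*, *mthl9*, *mthl10* and *mthl14*. *mthl3* had no such probeset, which left 12 probesets of 9 genes among 18769 probesets, with 2 each for *mthl4*, *mthl8* and *mthl10*. The family was chosen by the measured log2 levels of *mthl8*, which were higher in both mutants, so the values of *mthl8* are given as a description with no test. The other 10 probesets entered by gene name, from a list drawn up with earlier results of these data known.

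RNA of 30 hearts of 3-week-old flies was pooled for each of 16 Affymetrix Drosophila Genome 2.0 arrays. The *sei* mutants (n = 5) carried *sei*ts1, a chemically induced allele of the fly hERG potassium channel with a stop codon before the membrane-spanning part, and were set against the Canton-S strain, WtCS (n = 5). The *KCNQ* mutants (n = 3) carried an allele named KCNQ37 in the labels and KCNQ370 in the methods, made by imprecise excision of a P element, which also leaves a stop codon early in that potassium channel. Their control, WtPE (n = 3), was KCNQ97, a line of the w1118 strain from which the same P element had been cut precisely. The controls thus differed in strain as well as origin, and a mutation and its line cannot be told apart. The sources used here do not give the sex of the pooled hearts.

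All levels are log2 of the authors' RMA intensities, and the median probeset of an array lay between 3.36 and 3.62. The table holds no detection calls. By the names of the array files there were 3 runs. All WtPE and *KCNQ* arrays were in run A, together with replicates 4 and 5 of WtCS and of *sei*. The other WtCS arrays were in run B (replicates 1 and 2) and run C (replicate 3), and the other *sei* arrays in run C. A sample code in these names occurs in more than 1 array for 3 pairs (WtCS 2 with 3, *sei* 2 with 5 and *sei* 3 with 4), so p-values may in part measure the spread between arrays of 1 RNA. The *sei* transcript ranged from 5.31 to 6.03 in WtCS and from 3.89 to 5.25 in *sei* hearts, without overlap (adjusted p = 0.0212). *KCNQ* had no probeset of its own with 1 symbol, so the *KCNQ* labels have no such check. *Hand*, a transcription factor of the heart, had group means of 11.96 to 12.28, while *prc*, for the heart's matrix protein pericardin, had means of only 1.64 to 1.84. Of 5 measured heart genes 1 was called in *sei* against WtCS, where 11.1% of all probesets were called, 4.66% as lower. It was *pnr*, for a GATA transcription factor of the heart, which fell by 1.14 (adjusted p = 0.00112). *mid*, a T-box gene, had -1.01 (adjusted p = 0.0807), and *Hand*, *H15* and *prc* had -0.22, 0.007 and 0.16. Of 7 measured muscle genes 0 were called in this comparison, with a median difference of -0.31. The yolk protein genes *Yp1*, *Yp2* and *Yp3*, products of female tissue, had means of 12.17 to 12.90 in all 4 groups. Of 5 male accessory gland genes, *Acp95EF* had group means of 10.07 to 10.44. *Acp26Aa*, *Acp36DE*, *SP* and *Acp62F* had means of 2.47 to 3.18 in WtCS and 5.00 to 6.62 in WtPE hearts, without a call. In *sei* and *KCNQ* hearts their means were 2.32 to 3.88 and 4.37 to 5.44.

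Methuselah-like receptors carry a large domain outside the cell and 7 membrane-spanning segments, and the family has expanded in insects. Flies with reduced *mth*, the founding member, live longer and resist stress, and Mth also acts at the nerve-muscle synapse. The peptides encoded by *sun* (stunted) activate Mth, growth-blocking peptides signal through Mthl10, and Mthl1, also called Mist, receives the secreted Fog protein when cells change shape in the embryo. Mthl5 is needed for the shape of the embryonic heart. No role is given here for *mthl2*, *mthl4*, *mthl8*, *mthl9* or *mthl14*. In the RefSeq gene table *mthl8* is the first gene listed on arm 3L, *mthl14* is at place 44, and *mthl9*, *mthl10* and *mth* follow each other at places 62, 63 and 64. *mthl2* lies farther along the same arm, *mthl5* on 3R and *mthl1* on X. *mthl4* is on 2R, the arm that also holds *sei* and *KCNQ*.

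*mthl8* was near the bottom of the scale in both control strains and well above it in both mutants. On probeset 1629362_at, WtCS hearts had log2 levels of 1.64, 1.39, 1.36, 1.70 and 1.58 in replicates 1 to 5, and WtPE hearts had 1.60, 1.47 and 1.84. *sei* hearts had 5.85, 5.88, 6.38, 6.12 and 5.76, and *KCNQ* hearts had 5.49, 6.38 and 6.15. Every mutant array was above every control array, and neither the 2 controls nor the 2 mutants were separated from each other. The means were 1.53 ± 0.15 (SD, n = 5) in WtCS, 1.63 ± 0.19 (SD, n = 3) in WtPE, 6.00 ± 0.25 (SD, n = 5) in *sei* and 6.01 ± 0.46 (SD, n = 3) in *KCNQ* hearts. The differences were 4.46 on the log2 scale for *sei* against WtCS and 4.37 for *KCNQ* against WtPE. The control levels lay below the median of their arrays and have no detection call, so no fold is given for either *mthl8* probeset.

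The second *mthl8* probeset, 1633386_s_at, had the same order of controls and mutants. It read 2.45, 2.21, 2.05, 2.98 and 2.15 in WtCS and 2.25, 2.61 and 2.75 in WtPE hearts. *sei* hearts read 6.41, 6.68, 6.50, 5.73 and 5.21, and *KCNQ* hearts 6.58, 6.63 and 6.85. Control and mutant arrays were again fully apart, but the *sei* arrays of run A, replicates 4 and 5, were the lowest of the mutant arrays. The log2 difference was 3.74 for *sei* and 4.15 for *KCNQ*. Within run A the *sei* difference was 2.90 on this probeset and 4.30 on 1629362_at, and within run C, which has 1 control array, it was 4.48 and 4.68. By the maker's naming, the ending s_at marks a set whose probes match transcripts of more than 1 gene. When each array was left out in turn, the *sei* difference ranged from 3.60 to 3.96 on 1633386_s_at and from 4.37 to 4.52 on 1629362_at, and the *KCNQ* difference from 4.01 to 4.26 and from 4.19 to 4.63. These ranges describe the same values that led to the choice of the family and are no separate support for them.

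**Figure D1:**
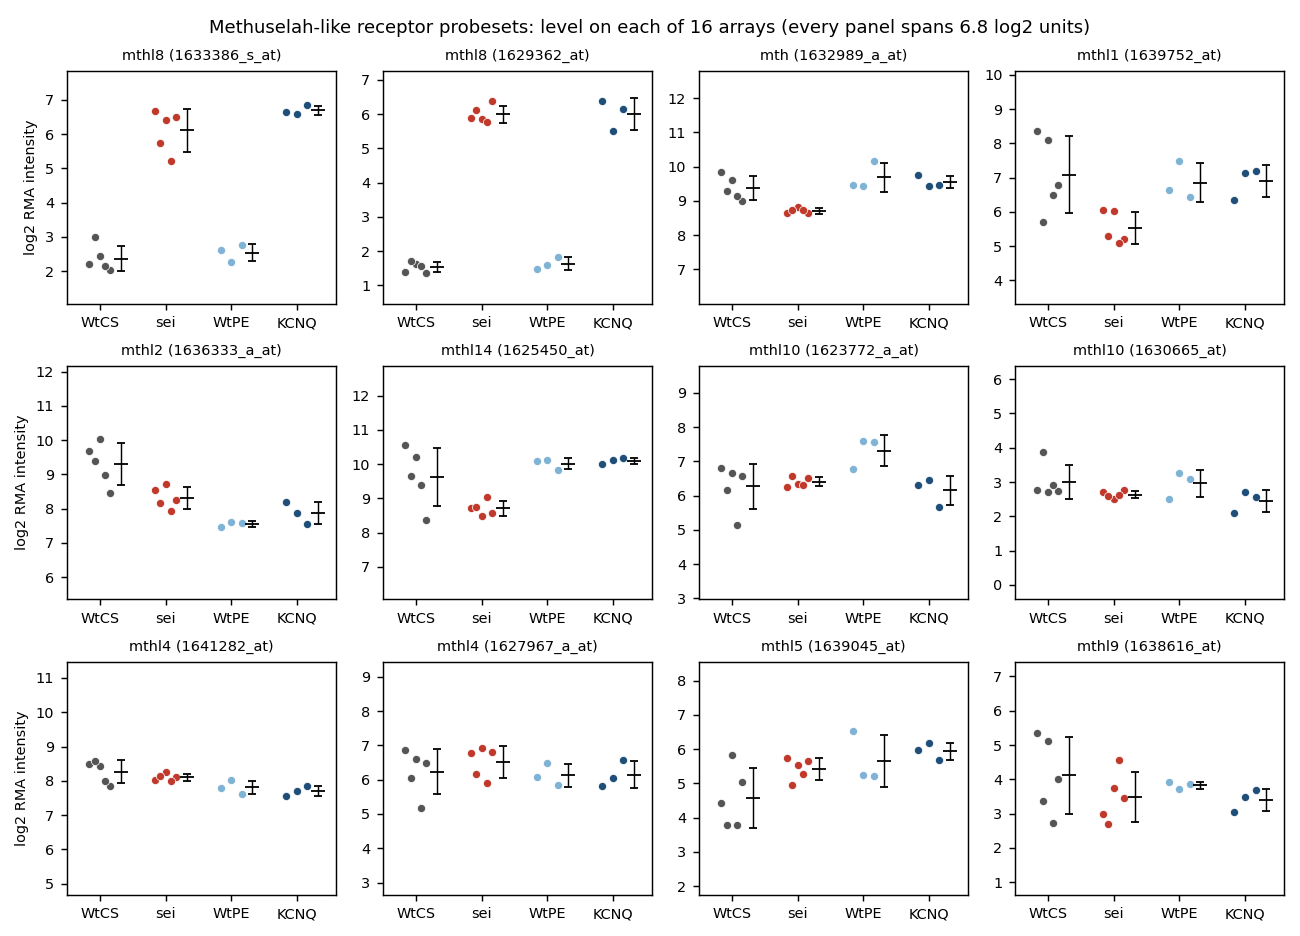
Log2 RMA intensity (vertical axis, the same span of log2 units in every panel) of the 12 methuselah-like probesets on the 16 arrays; each point is 1 array of the group on the horizontal axis, and the bar beside it is the group mean ± SD. On both *mthl8* panels every mutant array stands above every control array, while the other 10 panels show groups that are closer together.

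The description of *mthl8* extends to the rest of the array and to its chromosome. Among 18769 probesets, 4 had a log2 difference over 2 in both mutants and 2 had one over 3, and both of the latter were those of *mthl8*, a count that follows from how the family was picked. Likeness to *mthl8* was measured as the root mean square difference of log2 values over the 16 arrays, each probeset centred on its own mean. The *mthl8* probesets differed from each other by 0.49, whereas the 5 nearest other genes to 1633386_s_at, *CG14636*, *CG30270*, *CG33093*, *CG31373* and *BI-1*, differed from it by 1.15 to 1.26. *BI-1* encodes an inhibitor of cell death in the endoplasmic reticulum. The 5 nearest to 1629362_at were *CG14636*, *CG33093*, *Cyp6a2*, *CG30270* and *Argp*, at 1.03 to 1.41. *CG31373* and *BI-1* were thus among the nearest only for 1633386_s_at. *CG14636*, the nearest to both probesets, had group means of 4.45 in WtCS, 7.89 in *sei*, 4.98 in WtPE and 6.99 in *KCNQ* hearts. Its step in *KCNQ* was smaller than that of *mthl8*. These likenesses are a description over 16 arrays that share strains and runs.

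The nearest measured genes to *mthl8* on arm 3L had no step of its size. No gene of the table lies before it, and the 5 nearest measured genes after it, at 7 to 15 places, are *CG13405*, *CG12483*, *Pdk1*, *CG6845* and *Dic61B*. *Pdk1* encodes a kinase that activates Akt, and *Dic61B* a dynein chain. Of these 5 limma called 0 in *sei* against WtCS, with *CG13405* at 1.07 ± 0.33 (SE, adjusted p = 0.0502) and *CG12483* at -0.90 ± 0.33 (SE, adjusted p = 0.0957). Of all probesets 11.1% were called in *sei* and 0.17% in *KCNQ* hearts, and 5 genes can hold 0 calls at such shares. *CG13405*, *CG12483* and *Dic61B* had group means of 1.28 to 2.88, below the median of their arrays. Genes at fewer than 7 places were not among those measured. In *KCNQ* against WtPE the differences of the 5 ran from -0.47 for *CG6845* to 0.07 for *CG12483* (adjusted p = 1.000 for each).

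Apart from *mthl8*, 3 of the 10 member probesets, those of *mth*, *mthl1* and *mthl2*, fell in *sei* hearts and 0 rose (limma, adjusted p under 0.05). Of all probesets 11.1% were called in this comparison, and 4.66% of all probesets were called as lower. The median difference of the 10 was -0.49, beside -0.020 over all probesets, with 7 negative and 3 positive. The groups did not overlap for 1 of the 10, *mth*, against 7.17% of all probesets. Among the 7167 probesets with a mean log2 level of at least 5, limma called 1564, and 4 of those were members. In bulk hearts, fewer cells of a type and less RNA per cell cannot be told apart.

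*mth* read 9.62, 9.85, 8.99, 9.29 and 9.14 in WtCS and 8.83, 8.64, 8.64, 8.74 and 8.72 in *sei* hearts. Every *sei* array lay below every WtCS array, and the *sei* arrays varied less. The fall was 0.67 ± 0.19 on the log2 scale (SE, adjusted p = 0.0336), from 9.38 ± 0.35 (SD, n = 5) to 8.71 ± 0.08 (SD, n = 5). It was smaller within runs, with -0.49 in run A (adjusted p = 0.238) and -0.29 in run C (adjusted p = 0.814), and with array run as a covariate it was -0.40 (adjusted p = 0.172). Without WtCS replicate 2 the difference was -0.55 (adjusted p = 0.0874), and the call was also lost without WtCS replicate 1 or *sei* replicate 1, 2 or 3.

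*mthl1*, the Fog receptor gene, had the largest estimated fall among the 10 and a wide spread in its control. WtCS hearts read 8.10, 8.35, 6.78, 5.70 and 6.48, and *sei* hearts read 6.01, 6.06, 5.22, 5.30 and 5.09. The run B control arrays were the highest, and WtCS replicate 4 lay within the range of the *sei* arrays. The fall was 1.55 ± 0.44 (SE, adjusted p = 0.0318), from 7.08 ± 1.12 (SD, n = 5) to 5.54 ± 0.46 (SD, n = 5). Within runs it was -0.89 in run A (adjusted p = 0.223) and -1.01 in run C (adjusted p = 0.327), and with run as a covariate it was -0.94 (adjusted p = 0.0682). Without WtCS replicate 1 or 2 it was -1.29 or -1.23 (adjusted p = 0.0860 and 0.0792), and *sei* replicates 3, 4 and 5 each also carried the call.

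*mthl2* read 10.04, 9.67, 8.47, 9.39 and 8.99 in WtCS and 8.72, 8.53, 8.25, 8.15 and 7.93 in *sei* hearts. Only WtCS replicate 3, the control of run C, lay among the *sei* values. The fall was 1.00 ± 0.26 (SE, adjusted p = 0.0202). Within run A the difference was -1.15 (adjusted p = 0.0138), but within run C it was 0.031 (adjusted p = 1.000), and with run as a covariate it was -0.64 (adjusted p = 0.113). Without WtCS replicate 1 or 2 it did not pass (adjusted p = 0.0533 and 0.0520).

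*mthl14* differed by a similar size but was not called. It read 10.20, 10.56, 8.36, 9.65 and 9.40 in WtCS and 8.48, 8.70, 8.57, 8.75 and 9.04 in *sei* hearts. WtCS replicate 3 was below every *sei* array, and the other 4 control arrays were above all of them. The difference was -0.92 ± 0.30 (SE, adjusted p = 0.0614). Without WtCS replicate 3 it was -1.24 (adjusted p = 0.00176), within run A -0.63 (adjusted p = 0.0589) and within run C 0.23 (adjusted p = 0.813). With the arrays of 1 sample code averaged *mthl14* was called (-1.01, adjusted p = 0.00592), as was *mthl2* (-0.99, adjusted p = 0.0216), while *mth* and *mthl1* were not (-0.63 and -1.35, adjusted p = 0.0525 and 0.0902).

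**Figure D2:**
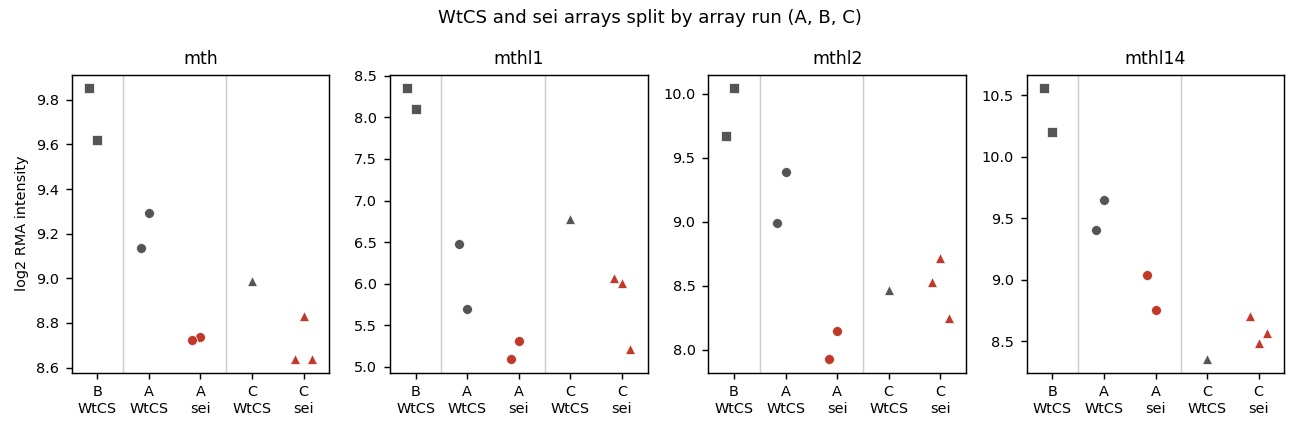
Log2 RMA intensity (vertical axis, scaled to each panel) of *mth*, *mthl1*, *mthl2* and *mthl14* on the WtCS (grey) and *sei* (red) arrays, split by array run on the horizontal axis; each point is 1 array. The 2 control arrays of run B are the highest in all 4 panels, and in run C the single control array is among or below the *sei* arrays for *mthl2* and *mthl14*.

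*mthl5*, the gene tied to heart shape, was higher on average in *sei* hearts without passing. WtCS hearts read 5.84, 4.43, 5.04, 3.79 and 3.78, and *sei* hearts read 5.54, 5.73, 5.67, 4.94 and 5.26. The highest array of all 10 was WtCS replicate 1, while the other 4 control arrays were below or just above the lowest *sei* array. The difference was 0.85 ± 0.37 (SE, 95% interval 0.08 to 1.63, adjusted p = 0.158). Without WtCS replicate 1 it was 1.17 (adjusted p = 0.0343).

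The remaining member probesets showed no call in *sei* hearts. The *mthl10* probeset 1623772_a_at had a difference of 0.14 (95% interval -0.46 to 0.74) and 1630665_at one of -0.36 (95% interval -0.84 to 0.12). The *mthl4* probesets 1641282_at and 1627967_a_at had -0.17 (95% interval -0.52 to 0.18) and 0.28 (95% interval -0.36 to 0.92). *mthl9* had -0.62 (95% interval -1.58 to 0.33), with WtCS arrays from 2.71 to 5.36 that spanned those of *sei*, from 2.70 to 4.57. Both *mthl4* intervals lay within a 2-fold change in either direction, whereas that of *mthl9* reached past it on the lower side.

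Markers of some other cell types moved in *sei* hearts beside these genes, where 11.1% of all probesets were called. The measured genes of neuron (5), trachea (2), gut (4), male accessory gland (5) and yolk (3) had 0 calls. The gut genes had a median difference of -1.43. Of 5 hemocyte genes 4 fell (*Hml*, *eater*, *He* and *Sr-CI*) and *NimC1* rose, and the summed intensity of the 5 was 4346 to 6574 in WtCS and 2414 to 2836 in *sei* hearts. It was 4156 to 4385 in WtPE and 3102 to 3813 in *KCNQ* hearts. *NimC1* had means of 6.95 in WtCS, 10.24 in *sei*, 10.43 in WtPE and 10.20 in *KCNQ* hearts, so WtCS alone was low. Of 6 ovary and germline genes 4 fell (*nanos*, *bam*, *orb* and *BicC*), with sums of 812 to 3660 in WtCS and 97.4 to 862 in *sei* hearts, and of 5 testis genes 4 rose (*Mst87F*, *Mst98Ca*, *Mst84Da* and *betaTub85D*), with sums of 43.3 to 414 and 257 to 1663. In WtPE and *KCNQ* hearts the testis sums were 297 to 468 and 343 to 757, and the ovary sums 673 to 1476 and 355 to 890. *bam* and *Mst84Da* also set WtCS apart, with WtCS means of 4.38 and 5.37. The other groups had means of 2.22 to 2.54 for *bam* and 7.71 to 8.28 for *Mst84Da*. Of 5 fat body genes *Apoltp* and *Mtp*, which serve lipoprotein assembly, rose by 1.08 and 1.09 (adjusted p = 0.0187 and 0.0145). The others were not called. *Lsp2* went the other way, with means of 9.96 in WtCS and 6.06 in *sei* hearts, beside 7.04 in WtPE and 7.03 in *KCNQ* hearts. *apolpp* had means of 12.07 and 12.37, and *Fbp1* 2.41 and 2.52. The sums of the 5 were 4553 to 10256 in WtCS and 6955 to 12252 in *sei* hearts, and 5384 to 7057 in WtPE and 4828 to 6566 in *KCNQ* hearts. Of 5 nephrocyte genes *sns*, for an adhesion protein of the slit diaphragm, fell by 0.75 (adjusted p = 0.0220), with sums of 4992 to 7588 and 5678 to 7542. The part of these cell types in the values of the receptors was not tested.

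In *KCNQ* hearts limma called 0 of the 10 member probesets other than *mthl8*, where 0.17% of all probesets were called, and 1 was under an unadjusted p of 0.05. A test of each probeset on its own variance also called 0 after adjustment. The median difference of the 10 was -0.04, with 5 negative and 5 positive, and for 2 of them, *mthl10* and *mthl9*, the groups did not overlap, against 10.8% of all probesets.

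*mthl10*, the receptor gene for growth-blocking peptides, had the largest of these differences. On 1623772_a_at WtPE hearts read 7.60, 6.78 and 7.56 and *KCNQ* hearts read 6.47, 6.31 and 5.67. The 3 mutant arrays were below the 3 control arrays, and the WtPE mean of 7.31 ± 0.46 (SD, n = 3) was above that of each other group, 6.27 ± 0.66 (SD, n = 5) in WtCS, 6.40 ± 0.14 (SD, n = 5) in *sei* and 6.15 ± 0.42 (SD, n = 3) in *KCNQ* hearts. The difference was -1.16 ± 0.36 (SE, 95% interval -1.93 to -0.39, adjusted p = 0.817). The dimmer *mthl10* probeset 1630665_at had -0.50 (95% interval -1.12 to 0.12) with overlapping groups.

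For *mth*, *mthl1*, *mthl2* and *mthl14*, the genes described above for *sei* hearts, 0 were called in *KCNQ* hearts, with differences from -0.14 to 0.32. *mth* read 9.43, 9.47 and 10.17 in WtPE and 9.44, 9.75 and 9.47 in *KCNQ* hearts, a difference of -0.14 (95% interval -0.66 to 0.38). *mthl14* read 10.11, 10.10 and 9.83 in WtPE and 10.12, 9.99 and 10.17 in *KCNQ* hearts, a difference of 0.08 (95% interval -0.75 to 0.91). The groups overlapped for both. *mthl1* and *mthl2* had 0.04 (95% interval -1.15 to 1.23) and 0.32 (95% interval -0.39 to 1.02).

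limma called the *sei* effect different from the *KCNQ* effect for 0 of the 10 probesets, where 1.39% of all probesets were called, and 3 were under an unadjusted p of 0.05. The test on each probeset's own variance also called 0. At a fold over 2 with an unadjusted p under 0.05, the methods' kind of threshold, 3 of the 10 passed for this difference against 7.73% of all probesets, 1 of 10 against 10.7% for *sei*, and 1 of 10 against 1.37% for *KCNQ*. The largest differences of the effects were -1.59 for *mthl1* (95% interval -3.10 to -0.08, adjusted p = 0.430), -1.31 for *mthl2* (95% interval -2.21 to -0.42, adjusted p = 0.197) and 1.30 for *mthl10* on 1623772_a_at (95% interval 0.32 to 2.28, adjusted p = 0.266). The falls called in *sei* hearts were therefore not shown to be absent from *KCNQ* hearts. Without WtCS replicate 3 the difference for *mthl2* was -1.53 (adjusted p = 0.0401).

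**Figure D3:**
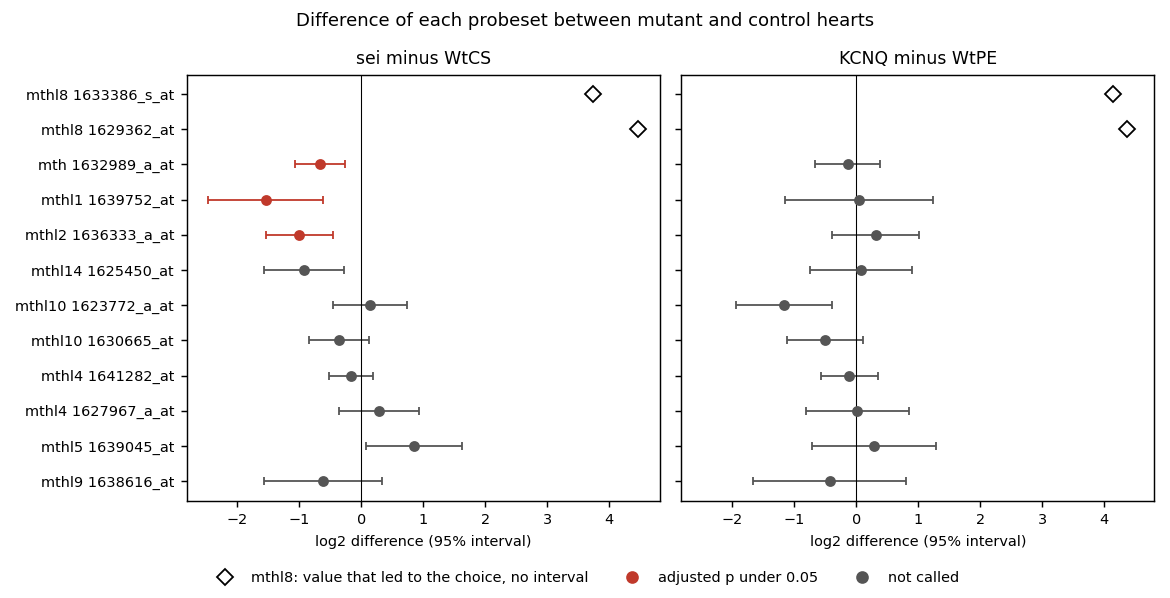
Log2 difference (horizontal axis) of each member probeset for *sei* against WtCS (left) and *KCNQ* against WtPE (right); filled points carry 95% intervals from limma, red where the adjusted p was under 0.05, and open diamonds are *mthl8*, given without interval. In *sei* hearts 3 probesets were called, all lower, and in *KCNQ* hearts 0 were called.

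The control strains differed in 1 member. *mthl2* read 7.62, 7.47 and 7.57 in WtPE, below all 5 WtCS arrays, and fell by 1.76 ± 0.30 from WtCS to WtPE (SE, adjusted p = 0.00286), or by 1.63 within run A (adjusted p = 0.000464). It was the only call among the 10 probesets, where 3.67% of all probesets were called, 1.81% as lower, and the call was kept without any 1 of the 16 arrays. At the fold threshold 3 of 10 passed, against 6.62% of all probesets. The order of its group means was 9.31 in WtCS, 8.31 in *sei*, 7.87 in *KCNQ* and 7.56 in WtPE hearts, and neither *KCNQ* and WtPE nor *sei* and *KCNQ* differed by limma (adjusted p = 1.000 and 0.430). The WtCS arrays enter both this comparison and that of *sei*.

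For *mthl10* and *mthl5* the difference between the control strains was larger within run A than over all arrays. *mthl10* on 1623772_a_at was higher in WtPE by 1.05 ± 0.33 (SE, adjusted p = 0.0975) over all arrays and by 1.65 within run A (adjusted p = 0.00496). *mthl5* was higher by 1.08 ± 0.42 (SE, adjusted p = 0.211) over all arrays and by 1.87 within run A (adjusted p = 0.00929). In both cases WtCS replicates 4 and 5 were among the lowest control arrays, at 6.16 and 5.15 for *mthl10* and at 3.79 and 3.78 for *mthl5*. For *mthl8* the same difference was 0.17 and 0.10 over all arrays and -0.025 and -0.0053 within run A on 1633386_s_at and 1629362_at.

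Set directly against each other, a comparison added after the values were seen in which strain and mutation both differ, *KCNQ* hearts were higher than *sei* hearts in 2 of the 10 probesets, and 8.89% of all probesets were called, 4.61% as higher. The groups did not overlap for 4 of the 10, those of *mth*, *mthl1*, *mthl14* and 1 of *mthl4*, against 18.8% of all probesets, and at the fold threshold 2 of 10 passed, against 10.9%. *mthl14* was higher by 1.38 ± 0.35 (SE, adjusted p = 0.0226), with *KCNQ* arrays from 9.99 to 10.17 and *sei* arrays from 8.48 to 9.04. *mth* was higher by 0.84 ± 0.22 (SE, adjusted p = 0.0264), also without overlap. Within run A, where both groups have arrays, *mthl14* differed by 1.20 (adjusted p = 0.00446) and *mth* by 0.82 (adjusted p = 0.0590). *mthl1*, not called over all arrays (1.36 ± 0.50, SE, adjusted p = 0.109), was higher within run A by 1.70 (adjusted p = 0.0238) and with run as a covariate by 1.73 (adjusted p = 0.00393). Without any 1 of the 3 *KCNQ* arrays neither was called (adjusted p from 0.0652 to 0.119), and *mth* was not called without *sei* replicate 2 or 3, nor *mthl14* without *sei* replicate 1.

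The 6 family genes outside the member list, *mthl6*, *mthl7*, *mthl11*, *mthl12*, *mthl13* and *mthl15*, were each measured. limma called 0 of the 6 in *sei* against WtCS, 0 in *KCNQ* against WtPE and 0 between the control strains, with median differences of -0.12, 0.04 and 0.13. *mthl15* had group means of 3.89 in WtCS, 2.95 in *sei*, 5.57 in WtPE and 6.47 in *KCNQ* hearts, and was higher in *KCNQ* than in *sei* hearts by 3.52 ± 0.54 (SE, adjusted p = 0.00094), a call kept without any 1 of the 16 arrays. The other 5 had group means between 1.34 and 3.08.

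Ligand genes of these receptors were measured on the same arrays, and 3 of 5 changed in *sei* hearts, where 11.1% of all probesets were called. *Gbp1*, for a growth-blocking peptide that signals through Mthl10, read 9.52, 9.25, 9.78, 10.01 and 9.93 in WtCS and 10.60, 10.77, 10.74, 10.84 and 10.89 in *sei* hearts. Every *sei* array was above every WtCS array. *Gbp1* rose by 1.07 ± 0.16 (SE, adjusted p = 0.000466), by 0.90 within run A (adjusted p = 0.00550) and by 0.92 within run C (adjusted p = 0.0162). *KCNQ* hearts read 9.94, 10.02 and 10.02, beside 9.52, 9.77 and 9.86 in WtPE, a difference of 0.28 ± 0.21 (SE, adjusted p = 1.000). The effects were not called different (0.79, adjusted p = 0.212). *Gbp1* was lower in *KCNQ* than in *sei* hearts by limma (-0.77 ± 0.18, SE, adjusted p = 0.0170), but not without any 1 of the 3 *KCNQ* arrays (adjusted p from 0.0586 to 0.0764).

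*Gbp3*, for a peptide of the same family, rose by 1.47 ± 0.39 (SE, adjusted p = 0.0234), and its values followed the run. WtCS arrays read 9.13, 9.30, 11.21, 9.26 and 9.74 and *sei* arrays read 11.72, 11.82, 11.73, 10.35 and 10.40. The run C control was above both *sei* arrays of run A, and the difference was 0.87 within run A (adjusted p = 0.0277) and 0.54 within run C (adjusted p = 0.291). Without WtCS replicate 1, 2 or 4 or *sei* replicate 1, 2 or 3 it was 1.32 to 1.37 and not called (adjusted p from 0.0545 to 0.0670). In *KCNQ* against WtPE *Gbp3* differed by 0.38 ± 0.50 (SE) and was not called, though the groups did not overlap. *Gbp2*, the other growth-blocking peptide known to act through Mthl10, differed by 0.68 ± 0.22 (SE, adjusted p = 0.0572), with 0.63 within run A and -0.08 within run C.

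*fog*, which encodes the ligand of Mthl1, fell by 1.31 ± 0.31 (SE, adjusted p = 0.0121) in *sei* hearts, the same comparison in which *mthl1* fell. It read 10.59, 10.74, 9.24, 10.0001 and 9.76 in WtCS and 8.32, 8.48, 8.13, 9.39 and 9.46 in *sei* hearts. Only WtCS replicate 3 lay within the *sei* range, and the difference was -0.93 within run C (adjusted p = 0.0342), -0.45 within run A (adjusted p = 0.182) and -0.66 with run as a covariate (adjusted p = 0.0187). In *KCNQ* hearts *fog* differed by -0.40 ± 0.40 (SE, adjusted p = 1.000). *KCNQ* and WtPE arrays did not overlap for *fog*, *Gbp1* and *Gbp3*, each in the direction seen in *sei* hearts. Of all probesets 10.8% did not overlap in this comparison. *sun*, for the peptides that activate Mth, had group means of 8.61, 8.67, 8.64 and 8.68 in WtCS, *sei*, WtPE and *KCNQ* hearts and was not called in any comparison (adjusted p from 0.850 to 1.000).

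**Figure D4:**
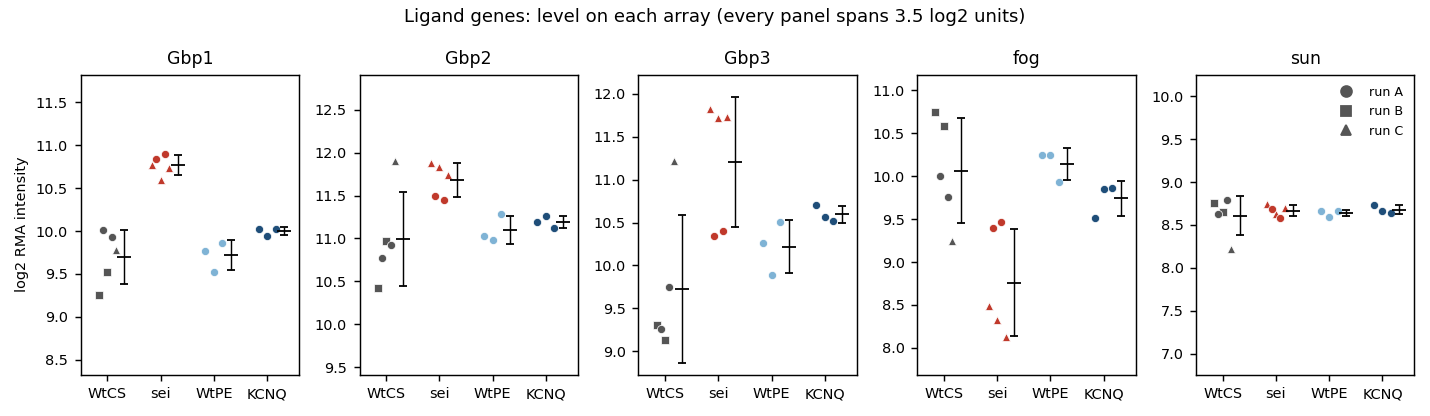
Log2 RMA intensity (vertical axis, the same span in every panel) of 5 ligand genes on the 16 arrays; each point is 1 array, its shape gives the array run, and the bar beside each group is the mean ± SD. *Gbp1* is above WtCS on all 5 *sei* arrays, whereas the *Gbp3* and *fog* values of run C differ from those of run A within *sei* hearts.

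The Fog pathway, the G protein genes and other class B receptors had 0 calls in either mutant against its control. Of all probesets 11.1% were called in *sei* and 0.17% in *KCNQ* hearts, and lists this small can hold 0 calls at such shares. Of 11 genes of the Fog pathway 5 had a probeset with 1 symbol, and limma called 0 of them in *sei* and 0 in *KCNQ* hearts against their controls. *cta*, for the G protein alpha subunit that relays Fog, had a difference of -1.26 ± 0.40 in *sei* hearts (SE, adjusted p = 0.0550), with -1.83 within run A (adjusted p = 0.0211), -0.46 within run C (adjusted p = 0.866) and -1.24 with run as a covariate (adjusted p = 0.0450). *T48*, for a membrane protein that acts beside Fog, had -0.50 over all arrays (adjusted p = 0.518) and -1.70 within run A (adjusted p = 0.00666). Of 10 measured G protein subunits and effectors 0 were called in either mutant, with median differences of -0.11 and 0.07. Of 7 other class B and adhesion receptors, among them *Dh31-R* and *Pdfr* for neuropeptide receptors and *Cirl* for the fly latrophilin, 0 were called in either mutant, with medians of -0.23 and -0.14. Between *KCNQ* and *sei* hearts *Rok*, for the kinase that activates myosin, and *Galphaq* were higher in *KCNQ* by 2.51 ± 0.39 and 1.75 ± 0.47 (SE, adjusted p = 0.00103 and 0.0300), and *Galphai* was lower (-0.68 ± 0.17, adjusted p = 0.0240). Of all probesets 8.89% were called in this comparison, and of the 7 class B and adhesion receptors 0. *Galphaq* and *Galphai* were each not called without 5 of the arrays taken singly (highest adjusted p = 0.172 without *KCNQ* replicate 1 for *Galphaq* and 0.0906 for *Galphai*), while *Rok* was called throughout. The control strains differed in the same directions, with WtPE against WtCS at 1.30 for *Rok*, 0.75 for *Galphaq* and -0.60 for *Galphai*, none called. *KCNQ* against WtPE had 0.39, 0.28 and 0.13 for these genes, so *Galphai* was not lower in *KCNQ* than in its own control.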

How the data were processed

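Hearts were read on Affymetrix Drosophila Genome 2.0 arrays. Quality was examined by the authors in affyQCReport, and RMA normalization was run in AltAnalyze (version not given in the sources used here). The deposited values are linear intensities, 1 per probeset and array, and their log2 was taken because the tests had been set for log2 values. Of 18952 probesets 183 controls were left out. Symbols came from the platform annotation (13647 probesets with 1, 402 with several, 4720 with none), and gene order from the RefSeq table of Release 6 plus ISO1 MT, to which 13544 of the 13647 were matched. limma 3.58.1 in R 4.3.3 fitted 4 group means (12 residual and 3.68 prior degrees of freedom), and p-values were adjusted over 18769 probesets by the Benjamini-Hochberg method, with calls at an adjusted p under 0.05. Differences within a run came from means of each group and run with the spread pooled over all arrays, so the single WtCS array of run C is assumed to vary like the rest. Where the text gives *KCNQ* against *sei* within run A, that run was fitted alone. For a listed gene with several probesets, the one with the highest mean was used.

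The members and lists were chosen with earlier results of these data known. Named are all member probesets, and up to 4 called genes of each receptor, ligand and pathway list and comparison. Also named are the 5 genes most like each *mthl8* probeset, the 5 measured genes nearest *mthl8* and the mutated genes. The marker genes, *cta*, *T48*, *Gbp2* and *sun* were singled out with their values seen. The fit was tested on simulated data. The comparison of *KCNQ* with *sei* and the values within run C were added later. The alternatives left out each array, averaged arrays by sample code, took the replicate number as a block, kept run A only, added array run as a covariate, kept probesets whose mean was at least 5 on the log2 scale, scaled arrays to one 75th percentile, repeated quantile normalization, used a robust prior with an intensity trend, used Student's t-test, or called a fold over 2 with an unadjusted p under 0.05.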

Additional observations from a re-analysis of the deposited data

Results flagged for a closer look

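Of 24 groups of 5 arrays examined for an array far from the others (12 probesets in WtCS and in *sei*), 1 stood out, and chance gives about 1 in 20 groups. WtCS replicate 4 read 3.86 for the dimmer *mthl10* probeset 1630665_at, while the other 4 WtCS arrays read 2.71 to 2.91. The other *mthl10* probeset had no such array, with WtCS replicate 4 at 6.16 between 5.15 and 6.79.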

How the results depend on the processing

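Counts are of the 10 member probesets other than *mthl8*. In *sei* against WtCS the 3 calls became 1 at a fold over 2 with an unadjusted p under 0.05, 0 by Student's t-test, 0 with array run as a covariate, 1 in run A alone and 0 within run C. Over all 18769 probesets 2089 were called in this comparison, and 2000 at that fold threshold. Student's t-test called 597 of them, run as a covariate 1932 and run A alone 855. With 1 array left out the member calls ranged from 0 to 4. The count was 0 without WtCS replicate 2, 1 without WtCS replicate 1 and 1 without *sei* replicate 3. Over all probesets 1644, 1502 and 1625 were called without these arrays, in that order. In *KCNQ* against WtPE the fold threshold gave 1 and each left-out array 0. For the difference of the effects the fold threshold gave 3, and leaving out an array 0 to 1, with 1 without WtCS replicate 3. Over all probesets 260 were called for this difference, and 355 without that array. Between WtPE and WtCS the 1 call became 3 at the fold threshold, 0 by Student's t-test, 4 with run as a covariate and 3 in run A alone, and 1 to 2 with an array left out, with 2 without WtCS replicate 1. The calls over all probesets shifted too, from 689 to 172 by Student's t-test, 3606 with run as a covariate and 2376 in run A alone. Between *KCNQ* and *sei* the 2 calls became 1 after scaling to the 75th percentile and 0 to 2 with an array left out, with 0 without any 1 *KCNQ* array and 1 without *sei* replicate 1, 2 or 3, and were 3 with run as a covariate. Over all probesets 1669 were called there, 1629 after that scaling and 3596 with run as a covariate. It was 683 to 750 without a *KCNQ* array and 1065 to 1341 without *sei* replicate 1, 2 or 3. The direction of *mthl2* in *sei* hearts turned within run C (0.031, adjusted p = 1.000). Of 1468 single differences recomputed, 1411 kept their side of the threshold or, for *mthl8*, moved by less than the spread between arrays, 38 lost a call, 14 gained one, 4 of *mthl8* on 1633386_s_at moved by more, all within run A or run C, and 1 turned. The cause of these changes was not tested. Correlations between arrays with the same replicate number ranged from -0.04 to 0.53 and not every one was over 0.1, so the numbers were not taken as pairs. With the replicate block the counts were 2 in *sei* (*mth* at adjusted p = 0.0504), 0 in *KCNQ* and 0 for their difference. No such fit exists for comparisons across the strain pairs. The number of arrays and, for *mthl8* in controls, a level with no detection call limit the precision.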
